A study of Mus musculus with 10 samples.

Results

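The proteasome genes described here are those whose array annotation carries 1 symbol of the Psma, Psmb, Psmc, Psmd, Psme, Psmf or Psmg series, with the immunoproteasome genes Psmb8, Psmb9 and Psmb10 left out. The rule found 46 genes, of 18193 genes with a named probe set, measured by 99 probe sets. Each gene was represented by its brightest probe set, judged by the mean of the 10 arrays. Of the 46, 2 share only the symbol: Psmc3ip encodes a factor of meiotic recombination and Psme3ip1 a protein that binds the product of Psme3. The remaining 44 genes encode 16 subunits of the core particle, 9 of the base and 8 of the lid of the regulatory particle, 3 activators, 1 inhibitor and 7 assembly chaperones. Psme2, the partner of Psme1, is not among them because its probe set carries a second symbol.

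The samples were splenic B cells of Irf4-/- mice and of Irf4+/+ littermates, 5 arrays per genotype, from C57BL/6 mice of 12 weeks. Non-B cells had been depleted magnetically and the remaining cells stimulated in culture for 3 days, with IL-4 at 20 ng/ml and anti-CD40 antibody at what the labels write as 1 mg/ml, so no sample of either genotype was resting. Irf4 encodes a transcription factor that activated B cells induce, and the comparison asks which transcripts differ without it. Whether each array stands for its own mouse or culture is not stated, and the p-values therefore cover only the variation among these arrays, possibly technical.

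The proteasome degrades proteins tagged with ubiquitin. Its core particle is a barrel of alpha and beta rings whose beta subunits Psmb5, Psmb6 and Psmb7 cut peptide bonds, and its regulatory particle has a base, whose ATPases unfold the substrate and open the barrel, and a lid, which removes the ubiquitin chain. Activators such as Psme1 and Psme3 can dock on the core in place of the regulatory particle, and in lymphocytes interferons induce Psme1 and the immunoproteasome subunits that replace the catalytic ones.

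RefSeq promoter windows (assembly GRCm38.p6, 250 bases before to 50 after the annotated start) were found for 35 of the 42 tested proteasome genes. Those of the 3 activators and of both catalytic subunits that fell are shown, because the activators moved in different directions and these subunits had the lowest p-values of the core. Capitals mark matches, on either strand, to TGACNNNGC (the core of the element bound by Nrf factors, which regulate proteasome genes), CCAAT (bound by NF-Y), CACGTG (an E-box), GAAA, any 2 bases and GAAA (an interferon response element) and GGAA, any 2 bases and GAAA (an ETS and IRF composite element). The windows are chr14:55578244-55578543 (plus strand) for Psme1, chr11:101315963-101316262 (plus strand) for Psme3, chr11:30771525-30771824 (plus strand) for Psme4, chr14:54617946-54618245 (minus strand) for Psmb5 and chr11:70525107-70525406 (plus strand) for Psmb6.
Psme1: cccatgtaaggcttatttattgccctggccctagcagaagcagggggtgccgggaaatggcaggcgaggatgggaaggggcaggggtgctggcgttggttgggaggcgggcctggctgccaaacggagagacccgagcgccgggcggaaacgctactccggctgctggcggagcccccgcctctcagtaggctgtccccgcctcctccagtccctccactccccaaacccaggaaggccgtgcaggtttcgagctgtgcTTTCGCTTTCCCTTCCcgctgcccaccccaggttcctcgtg
Psme3: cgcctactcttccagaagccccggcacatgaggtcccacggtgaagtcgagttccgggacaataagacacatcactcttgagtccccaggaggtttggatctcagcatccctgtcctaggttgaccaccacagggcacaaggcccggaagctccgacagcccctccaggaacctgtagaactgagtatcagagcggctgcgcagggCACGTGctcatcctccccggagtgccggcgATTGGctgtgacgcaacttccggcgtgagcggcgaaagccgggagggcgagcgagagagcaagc
Psme4: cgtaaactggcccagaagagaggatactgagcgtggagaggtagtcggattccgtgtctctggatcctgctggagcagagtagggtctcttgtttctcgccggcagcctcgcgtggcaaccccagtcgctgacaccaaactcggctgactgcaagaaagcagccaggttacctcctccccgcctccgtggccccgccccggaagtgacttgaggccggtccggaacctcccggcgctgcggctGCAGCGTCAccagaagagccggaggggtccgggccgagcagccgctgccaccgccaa
Psmb5: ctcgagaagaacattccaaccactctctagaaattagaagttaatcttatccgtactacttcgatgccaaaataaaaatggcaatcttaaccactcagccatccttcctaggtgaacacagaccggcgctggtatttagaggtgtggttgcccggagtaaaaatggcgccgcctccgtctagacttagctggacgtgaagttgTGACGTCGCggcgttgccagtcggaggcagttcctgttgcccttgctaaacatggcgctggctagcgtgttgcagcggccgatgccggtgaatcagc
Psmb6: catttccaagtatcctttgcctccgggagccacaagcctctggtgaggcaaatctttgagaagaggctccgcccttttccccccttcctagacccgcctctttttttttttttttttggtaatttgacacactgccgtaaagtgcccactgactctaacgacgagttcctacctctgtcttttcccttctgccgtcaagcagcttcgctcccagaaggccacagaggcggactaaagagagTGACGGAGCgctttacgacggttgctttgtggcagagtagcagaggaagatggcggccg
The Psme1 window held the interferon response element and the composite element on the minus strand, overlapping by 4 letters, just after the start. Neither element was found in the Psme3 window, which held CCAAT and CACGTG, or in the Psme4, Psmb5 and Psmb6 windows, each with 1 TGACNNNGC. Among the 37 windows of the tested proteasome genes, the interferon response element was found in 13.5% (3.44% of all 32851 windows of this length), the composite element in 5.41% (2.72%), TGACNNNGC in 16.2% (12.4%), CCAAT in 32.4% (37.4%) and CACGTG in 8.11% (7.15%). Besides Psme1, the interferon response element was found in the windows of Psmb3, Psmd4, Psmg4 and Psmd9, of which none passed the test, and the composite element in that of Psmc2, which fell. A match describes letters only.

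Irf4 itself gave 2821.4, 2988.7, 2765.9, 2638.2 and 2747.9 signal units in Irf4-/- samples 1 to 5, against 3898.9, 3745.1, 3757.6, 3978.4 and 3426.4 in Irf4+/+ samples 1 to 5, a log2 fold change of -0.43 (limma adjusted p = 5.01e-06). The sources used here do not place its probe sets relative to the disruption, and this signal does not check the genotype. Array medians ran from 37.2 to 45.0. The 3 probe sets for 18S ribosomal RNA averaged 141.6 ± 46.5 in Irf4-/- arrays and 40.7 ± 16.2 in Irf4+/+ arrays (SD, n = 5), 3.48-fold higher (exact two-sided permutation p = 0.00794, the smallest that 5 against 5 can give; adjusted p = 0.0317 over 4 array measures). The Actb 3' to 5' signal ratio, a sign of RNA quality, averaged 1.10 ± 0.0227 in Irf4-/- arrays and 1.15 ± 0.0259 in Irf4+/+ arrays (SD, n = 5; exact two-sided permutation p = 0.0238, adjusted p = 0.0476). That of Gapdh averaged 0.859 ± 0.0404 in Irf4-/- arrays and 0.856 ± 0.0269 in Irf4+/+ arrays (SD, n = 5; exact two-sided permutation p = 0.873). For the marker counts that follow, 23.4% of all 12251 genes tested were higher and 23.9% lower at an adjusted p under 0.05. B cell markers summed to 55331 to 61596 signal units in Irf4-/- and 30190.3 to 33870 in Irf4+/+ samples over 8 measured genes, led by Ms4a1, and all 8 were higher. Although non-B cells had been depleted, natural killer cell markers, led by Gzma, were higher for 9 of 9 tested genes (sums of 11758 to 16093 in Irf4-/- and 1263 to 1522 in Irf4+/+ samples), and macrophage markers, led by Adgre1, for 4 of 7 (sums of 1525 to 1893 in Irf4-/- and 452.3 to 514.3 in Irf4+/+ samples). Granulocyte markers were higher for 3 of 5 tested genes (sums of 640.8 to 1075 in Irf4-/- and 130.3 to 209.8 in Irf4+/+ samples). Dendritic cell markers were higher for 2 and lower for 2 of 5 tested genes (sums of 893.6 to 933.9 in Irf4-/- and 1182 to 1332 in Irf4+/+ samples). Flt3 was 7.14-fold and Batf3 1.55-fold lower, while Zbtb46, the brightest, was 1.30-fold and Itgax 2.23-fold higher. The lower sums rest mainly on Flt3, with means of 53.2 in Irf4-/- and 417.3 in Irf4+/+ samples, and the list as a whole had no common direction. Of the T cell markers 1 of 4 tested was higher, Cd5 at a mean of 69.7 in Irf4-/- and 25.9 in Irf4+/+ samples, and 1 was lower, Cd28 at 55.3 in Irf4-/- and 82.9 in Irf4+/+ samples (list sums of 252.5 to 344.2 in Irf4-/- and 199.6 to 307.8 in Irf4+/+ samples). The defining T cell genes Cd3d, Cd3e, Cd3g and Cd4 had means of 12.0 or less in either genotype and were not tested. Of the erythroid and platelet markers 0 of 2 tested were called (sums of 106.8 to 251 in Irf4-/- and 138.3 to 245.2 in Irf4+/+ samples). In these bulk samples fewer cells of a type and less RNA per cell cannot be told apart, and the part of the 18S signal, the Actb ratio and the marker genes in the results below was not tested.

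Among the 42 tested proteasome genes with a role in the particle, Irf4-/- replicate 4 was the lowest array of its genotype for 31, and for 13 of the 14 core genes. On the other side, Irf4+/+ replicate 1 was the highest array of its genotype for 23 of the 42, and for 11 of the 14 core genes. Results that change without Irf4-/- replicate 4 are given both ways. Psma8, a testis subunit, and Psmb11, a thymus subunit, were dim in every array (at most 22.1 signal units) and were not tested.

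The transcripts of the regulatory particle were lower in Irf4-/- cells, most of those of the core did not pass the test, and the activators split. Of the 44 tested genes of the rule 24 were lower and 3 higher at an adjusted p under 0.05, where 23.9% of all 12251 genes tested were lower and 23.4% higher, 47.2% in either direction. By class, 15 of 17 regulatory particle genes fell and 1 rose, while 3 of 14 core genes fell and 0 rose. All of the called differences were below 2-fold. The median log2 fold change was -0.33 for the base, -0.32 for the lid and -0.11 for the core, beside 0.00 over all genes tested. Proteasome genes are bright, and among the 4824 genes at least as bright as the dimmest of them, Psmd9 at 431.8, 36.7% were lower and 28.6% higher, with a median of -0.05. Counts and medians describe these lists, and no test compared the classes.

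**Figure D1:**
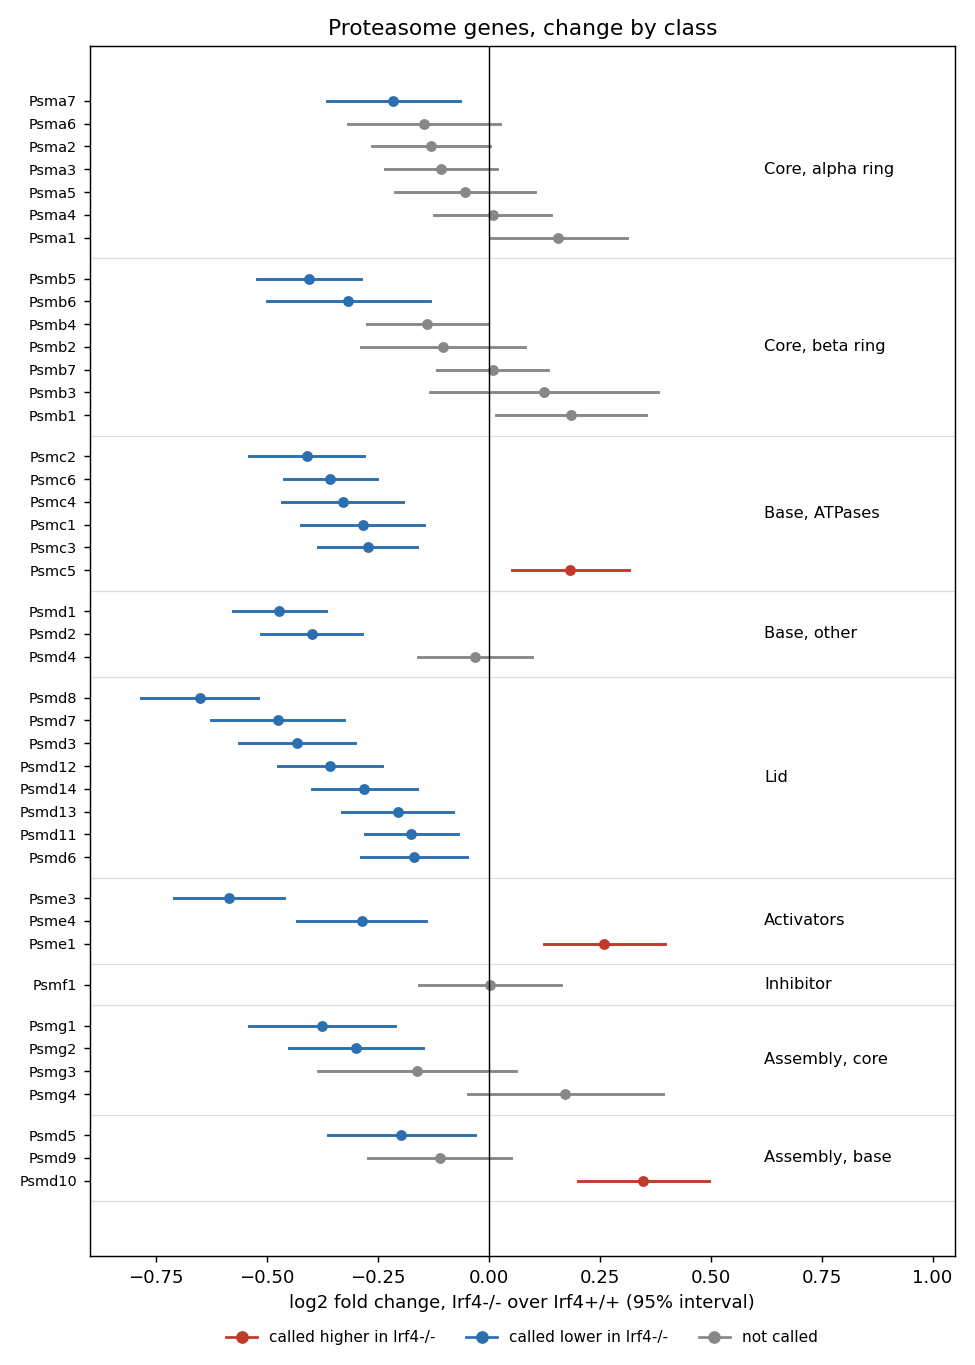
Log2 fold change of each tested proteasome gene, Irf4-/- over Irf4+/+ (x axis), with its 95% interval from the limma fit, by class down the page; red marks genes called higher, blue lower and grey not called, with 5 arrays per genotype. Intervals are not adjusted for the number of genes. Those of Psma1 and Psmb1 therefore lie right of 0, and that of Psmb4 left of 0, without a call. All 8 lid genes lie left of 0, and Psmc5, Psme1 and Psmd10 are the 3 called to the right.

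**Figure D2:**
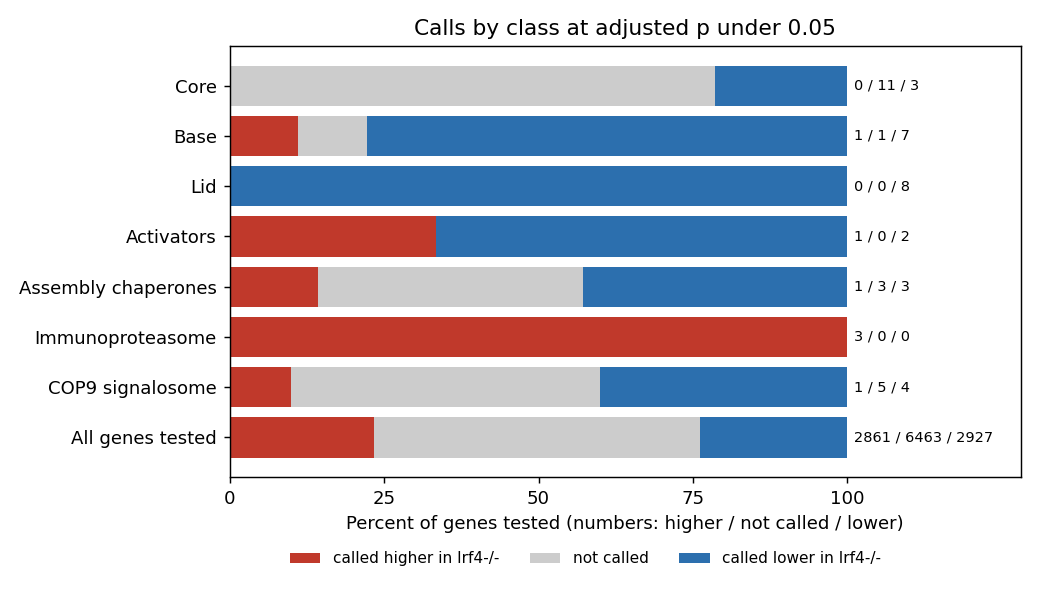
Percent of tested genes called higher, not called and called lower in Irf4-/- cells (x axis) for each class, with the numbers at the right of each bar. The lid has 8 of 8 genes of the rule lower and the core 3 of 14, while all 3 immunoproteasome genes were higher. Of all genes tested, the last bar, 23.9% were lower and 23.4% higher. Sem1, a lid subunit outside the rule, was higher and is not counted.

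Of the catalytic subunits of the core, Psmb5 and Psmb6 fell and Psmb7 did not pass the test. Psmb5, which carries the chymotrypsin-like activity, gave 2487.5, 2508.9, 2510.8, 2229.6 and 2459.9 signal units in Irf4-/- samples 1 to 5, against 3470.2, 3013.7, 3312.3, 3056.2 and 3324 in Irf4+/+ samples 1 to 5. Every Irf4-/- array lay below every Irf4+/+ array, 1.32-fold lower on average (log2 fold change -0.41, SE 0.0555, limma adjusted p = 1.32e-05). Psmb6, with the caspase-like activity, gave 2234.3, 2142, 2094.4, 1647.8 and 2340.1 in Irf4-/- samples, against 2987.4, 2337.7, 2502.7, 2530.5 and 2631 in Irf4+/+ samples. The groups overlapped by 1 array of each, Irf4-/- replicate 5 at 2340.1 and Irf4+/+ replicate 2 at 2337.7, and the log2 fold change was -0.32 (SE 0.0865, limma adjusted p = 0.00614). Psmb7, with the trypsin-like activity, gave 8120.7, 7263.2, 7460.1, 6973 and 7521 in Irf4-/- samples, against 7068.4, 6859.3, 8120, 7165.2 and 7946.7 in Irf4+/+ samples. Its groups interleaved, with a log2 fold change of 0.01 (95% interval -0.12 to 0.13; limma adjusted p = 0.925), and the sign turned with quantile normalization and with arrays centred on their median.

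The structural beta subunits did not pass the test. Psmb1 had a log2 fold change of 0.19 (limma adjusted p = 0.0685) and Psmb3 of 0.12 (limma adjusted p = 0.437). Without Irf4-/- replicate 4 both were called higher, Psmb1 at 0.22 (limma adjusted p = 0.0321) and Psmb3 at 0.26 (limma adjusted p = 0.0185), and the second Psmb3 probe set had the opposite sign at -0.10. Psmb1 was also called higher without Irf4+/+ replicate 1 (limma adjusted p = 0.0306) or 5 (limma adjusted p = 0.0425). Psmb2 and Psmb4 had log2 fold changes of -0.10 and -0.14 (limma adjusted p = 0.365 and 0.0901). Psmb4 was called lower without Irf4-/- replicate 5 (limma adjusted p = 0.0348) or Irf4+/+ replicate 3 (limma adjusted p = 0.0375).

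In the alpha ring, which gates entry to the barrel, 1 of 7 tested genes was called. Psma7 gave 2528.2, 2377.6, 2646.7, 2414.5 and 2886.3 signal units in Irf4-/- samples, against 3431.1, 2890.4, 2646.3, 3037.5 and 2941 in Irf4+/+ samples. The groups overlapped, and the difference was small (log2 fold change -0.22, SE 0.0703, limma adjusted p = 0.0184). It was no longer called without Irf4-/- replicate 2 (limma adjusted p = 0.0539) or Irf4+/+ replicate 1 (limma adjusted p = 0.0525). The call was also lost with eBayes without a trend (limma adjusted p = 0.0549) and with the mean of its probe sets (limma adjusted p = 0.0799). A second Psma7 probe set of similar brightness was not called (log2 fold change -0.15, limma adjusted p = 0.236 over probe sets). Psma1 gave 3352, 3155.7, 3332.3, 3089.3 and 3553.7 in Irf4-/- samples, against 3375.5, 2986.4, 3103.6, 2928.3 and 2451.3 in Irf4+/+ samples, overlapping and higher on average by 0.16 on the log2 scale (limma adjusted p = 0.0907). It was called higher without Irf4+/+ replicate 1 (limma adjusted p = 0.0257) and with array weights (limma adjusted p = 0.0499), and its sign turned with the mean of its probe sets (-0.038). Psma4, whose groups interleaved, gave 4231.8, 4008.3, 4281.1, 3516.9 and 4368.3 in Irf4-/- samples, against 4364.9, 3999.5, 3803.7, 3949.1 and 4132.7 in Irf4+/+ samples (log2 fold change 0.01, 95% interval -0.12 to 0.14). Its sign turned with either other scaling. Psma2, Psma3, Psma5 and Psma6 had log2 fold changes of -0.13, -0.11, -0.05 and -0.15, none called, and without Irf4-/- replicate 4 that of Psma5 was 0.013. A second bright probe set of Psma6 was lower by itself (log2 fold change -0.22, limma adjusted p = 0.00248 over 22533 probe sets).

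Over the 11 core genes that were not called, the 95% intervals together spanned -0.32 to 0.38 on the log2 scale, so small changes in either direction are not shown to be absent. The count of core genes called lower was 3 as processed and 7 after quantile normalization, with Psma2, Psma3, Psma6 and Psmb4 added. Without Irf4-/- replicate 4 the core median was -0.04, against -0.11 with it, 3 core genes were lower and 2 higher. Without Irf4+/+ replicate 1, 2 core genes were lower and 2 higher.

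**Figure D3:**
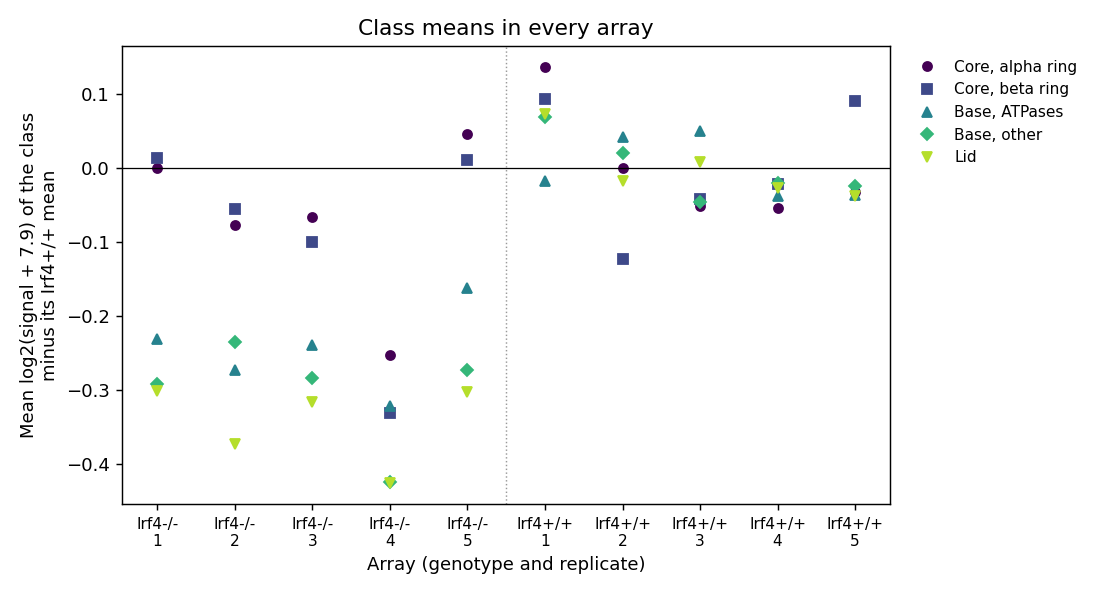
Mean log2(signal + 7.9) of the tested genes of each class in every array, minus the mean of that class over the 5 Irf4+/+ arrays (y axis), by genotype and replicate (x axis); each marker is 1 class in 1 array. The lid and base markers of the Irf4-/- arrays all lie below those of the Irf4+/+ arrays, while the core rings overlap between genotypes and dip in Irf4-/- replicate 4.

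Class means by array average the same values that gave the calls, so they restate the split and add no separate evidence. For the lid the mean log2(signal + 7.9) lay between 10.85 and 10.98 in Irf4-/- samples, against 11.24 to 11.35 in Irf4+/+ samples, with no overlap. The base ATPases lay between 11.02 and 11.18 in Irf4-/- samples, against 11.30 to 11.39 in Irf4+/+ samples. The alpha ring lay between 11.92 and 12.22 in Irf4-/- samples, against 12.12 to 12.31 in Irf4+/+ samples, and the beta ring between 11.57 and 11.92 in Irf4-/- samples, against 11.78 to 12.00 in Irf4+/+ samples, both overlapping.

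Of the 6 ATPases of the base 5 fell and 1 rose. Psmc6 gave 2896.1, 2775, 2824.9, 2649.1 and 2902.5 signal units in Irf4-/- samples, against 3826.4, 3605.4, 3533.3, 3630.9 and 3412.9 in Irf4+/+ samples. The groups were apart (log2 fold change -0.36, SE 0.0491, limma adjusted p = 1.39e-05), and all 3 of its probe sets were lower. Psmc2 gave 4208.3, 4155.1, 4231.4, 4156.7 and 4934.1 in Irf4-/- samples, against 5656.3, 6449.6, 5431.4, 5581.5 and 5697.7 in Irf4+/+ samples, again apart and 1.33-fold lower (log2 fold change -0.41, limma adjusted p = 3.23e-05). Psmc1, Psmc3 and Psmc4 had log2 fold changes of -0.28, -0.27 and -0.33, with limma adjusted p from 0.000387 (Psmc3) to 0.00171 (Psmc1). A second Psmc4 probe set of similar brightness read 0.22 with the opposite sign (limma adjusted p = 0.131 over probe sets), and Psmc4 was not called with the mean of its probe sets (log2 fold change -0.06, limma adjusted p = 0.586).

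Psmc5 was the ATPase that rose. It gave 2079.4, 2158.3, 2185.4, 2005.5 and 2235.7 in Irf4-/- samples, against 1693.7, 1834.8, 2132.1, 1803.7 and 1941.6 in Irf4+/+ samples. Only Irf4+/+ replicate 3 reached into the Irf4-/- range, and the log2 fold change was 0.18 (SE 0.0623, limma adjusted p = 0.0227). The call was lost without Irf4-/- replicate 3 or 5 or Irf4+/+ replicate 1 or 4 (limma adjusted p = 0.0528, 0.0551, 0.0629 and 0.0572 in that order), and with arrays centred on their median (log2 fold change 0.12, limma adjusted p = 0.163).

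The scaffold proteins of the base, Psmd1 and Psmd2, which hold ubiquitin-binding and shuttling factors, fell. Psmd1 gave 1719.8, 1866.3, 1765.4, 1700.4 and 1766.2 signal units in Irf4-/- samples, against 2383, 2587, 2381.6, 2496.2 and 2408 in Irf4+/+ samples. Its arrays of each genotype were tightly grouped and far apart, 1.39-fold lower in Irf4-/- (log2 fold change -0.47, SE 0.0494, limma adjusted p = 6.42e-07). Psmd2 averaged 2241 ± 109 in Irf4-/- cells and 2959 ± 155 in Irf4+/+ cells (SD, n = 5; log2 fold change -0.40, limma adjusted p = 1.06e-05), also without overlap. Psmd4, a ubiquitin receptor between base and lid, gave 2397.7, 2350.6, 2373.8, 1989 and 2386.6 in Irf4-/- samples, against 2556.4, 2317.1, 2299.2, 2251.5 and 2309.5 in Irf4+/+ samples. These groups overlapped, with a log2 fold change of -0.03 (95% interval -0.16 to 0.10; limma adjusted p = 0.717), and without Irf4-/- replicate 4 the sign turned, to 0.020.

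All 8 lid genes of the rule fell, and for each of them every Irf4-/- array lay below every Irf4+/+ array, as it did for 18.3% of all genes tested (35.7% did not overlap in either direction). Psmd8, a small lid subunit, had the largest difference of the proteasome genes on their brightest probe sets. It gave 2870.4, 2530.5, 2635.7, 2261.7 and 2830.3 signal units in Irf4-/- samples, against 4254.4, 3946.7, 4172.2, 4059.7 and 4145.4 in Irf4+/+ samples, 1.57-fold lower (log2 fold change -0.65, SE 0.0622, limma adjusted p = 2.30e-07). Psmd14, the metalloprotease that cuts off the ubiquitin chain, gave 4592.7, 4244.8, 4594, 4666.4 and 4401.1 in Irf4-/- samples, against 5124.2, 5450.5, 6094.1, 5612.7 and 5102.8 in Irf4+/+ samples. The gap between its groups was narrower (log2 fold change -0.28, SE 0.0557, limma adjusted p = 0.000510). Psmd3, a structural subunit, gave 733.9, 859, 831.6, 800.7 and 832.1 in Irf4-/- samples, against 1149.8, 1024.6, 1148.9, 1041 and 1121.8 in Irf4+/+ samples (log2 fold change -0.43, limma adjusted p = 2.04e-05). The partner of Psmd14, Psmd7, and the structural subunits Psmd12, Psmd13 and Psmd11 had log2 fold changes of -0.48, -0.36, -0.21 and -0.18, with limma adjusted p of at most 0.00844 (Psmd13).

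Psmd6 had the largest p of the lid genes, and its probe sets read very different sizes. The brighter one gave 2872.5, 2760.4, 2768.1, 2492.3 and 2817.6 signal units in Irf4-/- samples, against 3414.1, 2973.5, 3000.2, 2966.8 and 3066.5 in Irf4+/+ samples (log2 fold change -0.17, SE 0.0561, limma adjusted p = 0.0204). It was no longer called without Irf4+/+ replicate 1 (limma adjusted p = 0.0580). The other, whose name marks probes shared among transcripts of a gene, gave 959.2, 997.7, 1049.7, 1088.6 and 1068.9 in Irf4-/- samples, against 3367.4, 3176.3, 3001.1, 2972 and 2780.9 in Irf4+/+ samples. That is 2.94-fold lower (log2 fold change -1.56, limma adjusted p = 6.27e-12 over 22533 probe sets). Psmd11 also differed between its probe sets with a mean of at least 400 signal units, from 0.00 to -0.54 (limma adjusted p = 0.958 and 2.69e-05 over probe sets). Without probe sets named _s_at, _x_at or _a_at, whose probes can match several transcripts, Psmd12 and Psmd14 had no value, Psmd11 and Psmd13 were not called, and 4 lid genes were lower. With the mean of all probe sets of a gene 6 lid genes were lower, Psmd7 and Psmd13 not being called.

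**Figure D4:**
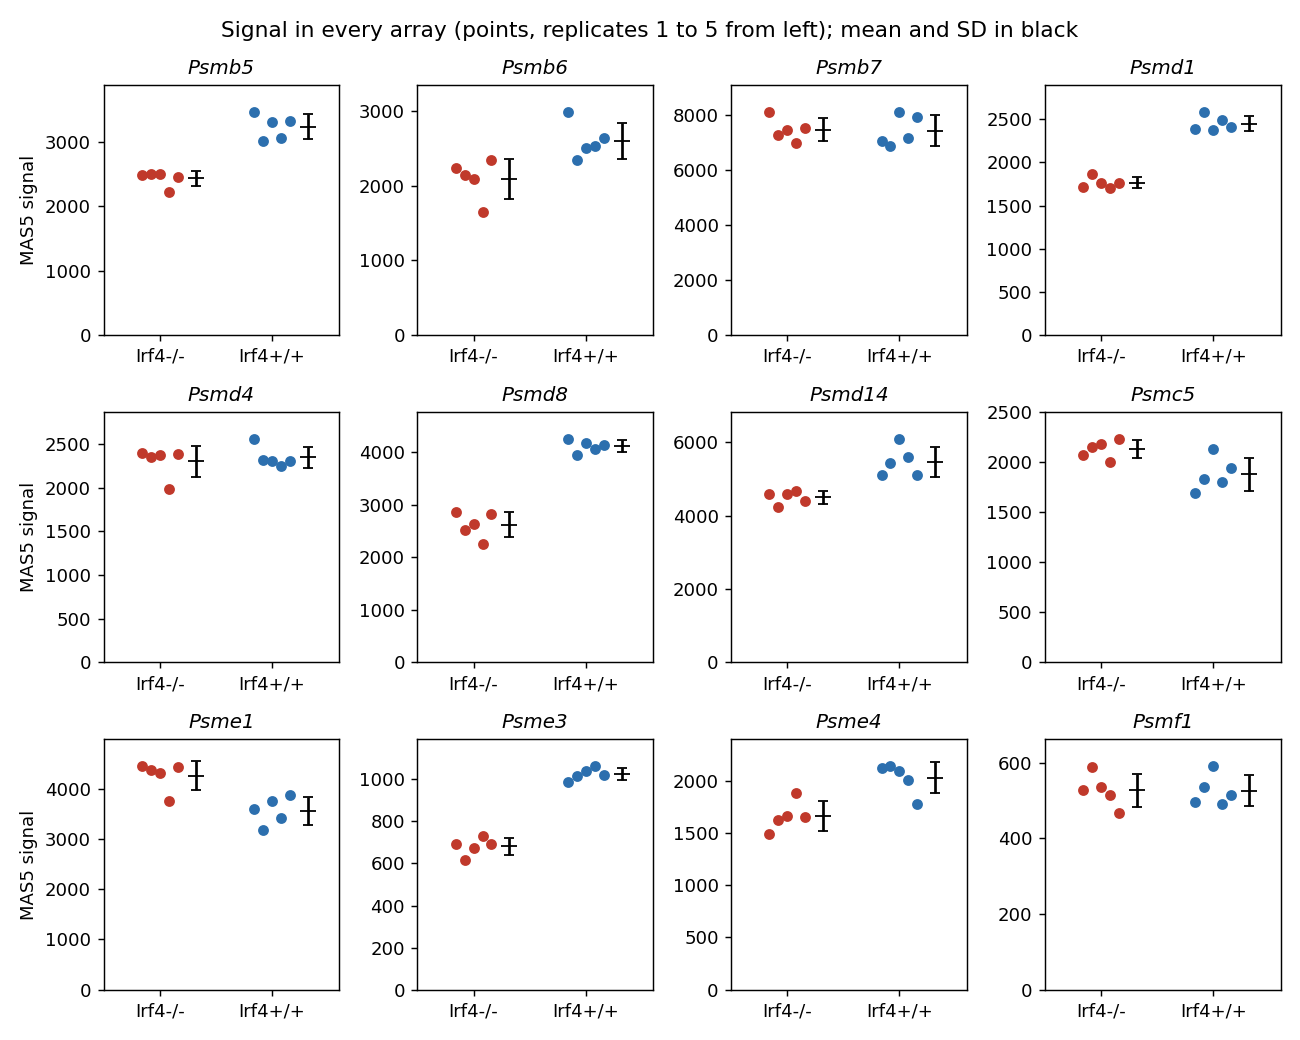
MAS5 signal (y axis, from 0) of 12 proteasome genes in every array, Irf4-/- in red and Irf4+/+ in blue; points are replicates and the black mark is the mean with its SD (n = 5). Psmd8, Psmd1, Psmd14, Psmb5 and Psme3 have separate groups, whereas Psmb7, Psmd4 and Psmf1 overlap.

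The activators moved in different directions. Psme1, a subunit of the interferon-induced activator that works with the immunoproteasome, gave 4453.1, 4376.4, 4314.6, 3751 and 4429.1 signal units in Irf4-/- samples, against 3590.8, 3173.3, 3757.5, 3413.4 and 3873.5 in Irf4+/+ samples. It rose (log2 fold change 0.26, SE 0.0641, limma adjusted p = 0.00297), with Irf4-/- replicate 4 alone inside the Irf4+/+ range. Psme3, a nuclear activator linked to cell growth, gave 691.3, 618.7, 674, 731.3 and 690.2 in Irf4-/- samples, against 986.6, 1015.1, 1038, 1062.9 and 1020.9 in Irf4+/+ samples. Its groups were far apart and it fell (log2 fold change -0.59, SE 0.0585, limma adjusted p = 3.91e-07), and a second probe set fell as well (-0.50, limma adjusted p = 0.0145 over probe sets). Psme4, a large nuclear activator that takes part in degrading acetylated histones, gave 1487.3, 1624.3, 1663.3, 1881.5 and 1653 in Irf4-/- samples, against 2126.7, 2140.4, 2088.8, 2004 and 1779.1 in Irf4+/+ samples. Replicate 4 of the Irf4-/- group and replicate 5 of the Irf4+/+ group overlapped, and the log2 fold change was -0.29 (SE 0.0682, limma adjusted p = 0.00231). Its 3 probe sets above 700 signal units were all lower and its 3 probe sets below 60 were higher, so that the mean of all 6 gave 0.00 (limma adjusted p = 0.969).

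The 3 immunoproteasome genes, which the rule leaves out, were all higher, where 23.4% of all genes tested were. Psmb10 rose 2.76-fold, Psmb9 1.81-fold and Psmb8 1.43-fold (limma adjusted p = 2.88e-11, 2.75e-09 and 1.97e-07).

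Psmf1 encodes an inhibitor that binds the core. It gave 527.2, 588.6, 536.5, 515.8 and 466.1 signal units in Irf4-/- samples, against 495.9, 536.3, 591.3, 490.5 and 515.7 in Irf4+/+ samples. The groups covered the same range (log2 fold change 0.00, 95% interval -0.16 to 0.16; limma adjusted p = 0.989). A further, dimmer probe set of Psmf1 was called higher (log2 fold change 0.37, limma adjusted p = 0.0372 over probe sets).

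Of the assembly chaperones, which help build the particle and leave it, 3 of 7 were lower and 1 higher. Of all genes tested 23.9% were lower and 23.4% higher, 47.2% in either direction. For a list of 7 genes the share called is close to that, and it is not read as a result about the class. Psmg1 and Psmg2 act as a pair on the alpha ring and both fell. Psmg1 gave 1306.9, 1223.7, 1166.4, 1004.9 and 1360.3 signal units in Irf4-/- samples, against 1757.4, 1585.1, 1535.2, 1463.5 and 1510.5 in Irf4+/+ samples, without overlap (log2 fold change -0.38, limma adjusted p = 0.000739). Psmg2 gave 1592.7, 1557.8, 1431.9, 1385.8 and 1543.9 in Irf4-/- samples, against 1817.6, 1902.4, 1587.3, 1845.4 and 2129.4 in Irf4+/+ samples (log2 fold change -0.30, limma adjusted p = 0.00230), overlapping by 1 array of each genotype. The other pair, Psmg3 and Psmg4, had log2 fold changes of -0.16 and 0.17 (limma adjusted p = 0.230 and 0.193). Psmg3 gave 573, 703.9, 637.9, 496.8 and 603.8 in Irf4-/- samples, against 810.6, 544.2, 738.8, 632.4 and 661.7 in Irf4+/+ samples, with wide overlap.

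Among the chaperones of the base, Psmd10, also known as the oncoprotein gankyrin, rose. It gave 559.6, 580.2, 565.4, 516.1 and 585.3 signal units in Irf4-/- samples, against 497.4, 435.8, 410.9, 428.6 and 426.2 in Irf4+/+ samples. All 5 Irf4-/- arrays lay above all Irf4+/+ arrays (log2 fold change 0.35, SE 0.0691, limma adjusted p = 0.000517). Psmd5 fell slightly (log2 fold change -0.20, limma adjusted p = 0.0473), a call that was lost when any of 7 arrays was left out, Irf4-/- replicates 1, 3 and 4 and Irf4+/+ replicates 1 to 4, with limma adjusted p up to 0.142. Psmd9 had a log2 fold change of -0.11 (limma adjusted p = 0.252).

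**Figure D5:**
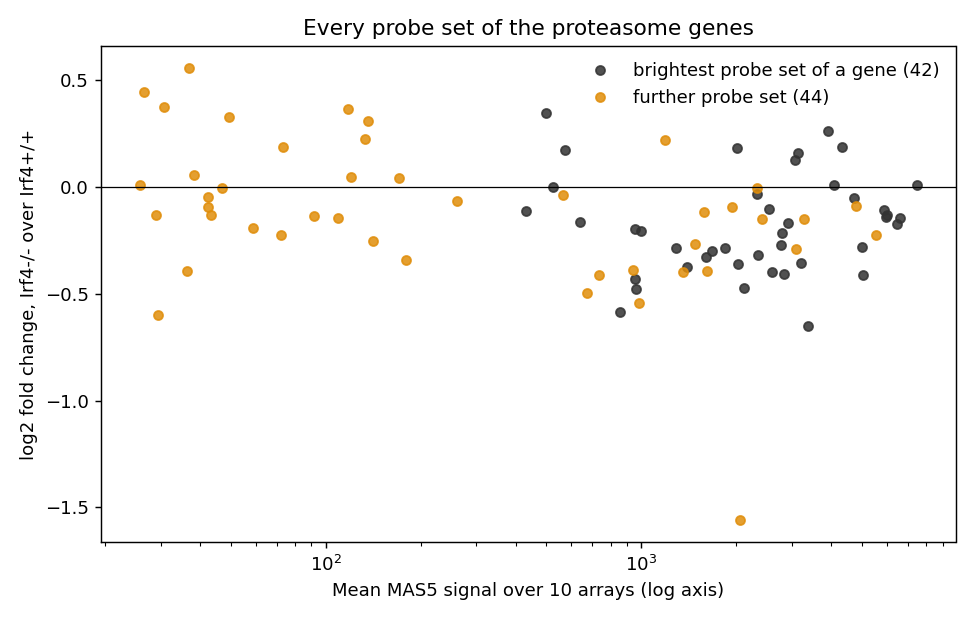
Log2 fold change, Irf4-/- over Irf4+/+ (y axis), of each of the 86 probe sets of the proteasome genes above the filter, against its mean signal over 10 arrays (x axis, log scale); black points are the brightest probe set of a gene and orange points the 44 further ones. The point at -1.56 is the second Psmd6 probe set, and the probe sets under 400 signal units scatter on both sides of 0.

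Further probe sets bear on how firm these directions are. Of 18 further probe sets with a mean of at least 400 signal units, 16 had the sign of the brightest probe set of their gene, the exceptions being those of Psmc4 and Psmb3. Of 26 dimmer ones 14 had the same sign and 12 the opposite one. These counts go by sign alone. Some of the 16 that matched were near 0 and not called. Examples are a Psmd11 probe set at -0.0046 and a Psmd13 probe set at -0.040 (limma adjusted p = 0.958 and 0.660 over probe sets). Within a genotype the coefficient of variation of the tested genes was 2.81% to 19.4% in Irf4-/- samples (median 6.79%) and 2.76% to 15.0% in Irf4+/+ samples (median 7.28%). For the core genes the median was 8.22% in Irf4-/- and 8.11% in Irf4+/+ samples, and for the regulatory particle 5.42% in Irf4-/- and 5.22% in Irf4+/+ samples.

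Of 9 tested genes for proteins that associate with the particle 4 were lower and 2 higher, where 23.9% and 23.4% of all genes tested were. The deubiquitinases Uchl5 and Usp14, which trim ubiquitin chains at the base, fell 1.62-fold and 1.33-fold, and the thioredoxin-like Txnl1 1.31-fold (limma adjusted p = 4.34e-07, 4.23e-05 and 3.92e-06). Txnl1 was not called with the mean of its probe sets (log2 fold change -0.15, limma adjusted p = 0.315). The small lid subunit Sem1 rose 1.28-fold (limma adjusted p = 0.000467), unlike the lid genes above. Pomp, which guides assembly of the core and is named here after its values were seen, rose 1.24-fold (limma adjusted p = 0.00230).

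Genes that deliver ubiquitin-tagged proteins were lower for 7 of 9 tested and higher for 0, beside the same 23.9% and 23.4%. The shuttle receptor Rad23b fell 1.44-fold, the unfolding ATPase Vcp 1.24-fold, its cofactor Ufd1 1.21-fold and the shuttle factor Ubqln4 1.34-fold (limma adjusted p = 4.34e-07, 5.86e-05, 0.000823 and 0.00268). Without probe sets named _s_at, _x_at or _a_at Ufd1 read -0.020 and was not called (limma adjusted p = 0.856). Of the transcription factors and processing enzymes that control proteasome genes, 1 of 6 was lower and 2 were higher, a share called that is close to the 47.2% of all genes tested. Nfyb, a subunit of NF-Y, fell 1.40-fold (limma adjusted p = 2.28e-06) and Nfya rose 1.19-fold (limma adjusted p = 0.00883). With those probe sets left out Nfya read -0.37 (limma adjusted p = 0.0627), so its direction depends on the probe set. Ngly1, which processes the factor encoded by Nfe2l1, rose 1.19-fold (limma adjusted p = 0.00857), a call lost with arrays centred on their median (limma adjusted p = 0.0639). Nfyc, the remaining subunit of NF-Y, had a log2 fold change of 0.14 (limma adjusted p = 0.0513). Nfe2l1, named after its values were seen, averaged 557.3 ± 31.2 in Irf4-/- cells and 605.3 ± 52.1 in Irf4+/+ cells (SD, n = 5; limma adjusted p = 0.214).

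The COP9 signalosome, a complex built on the same plan as the lid that removes NEDD8 from cullins, had 4 of 10 genes lower and 1 higher, with a median log2 fold change of -0.15. The share called is close to the 47.2% of all genes tested. Cops3, Cops5 and Cops2 fell 1.19-fold, 1.16-fold and 1.18-fold (limma adjusted p = 0.00403, 0.00491 and 0.0128), and Cops9 rose 1.34-fold (limma adjusted p = 0.00125). Cops3 was not called with the mean of its probe sets (log2 fold change -0.13, limma adjusted p = 0.547). No test compared this complex with the lid.

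Of both genes that share only the symbol, Psmc3ip was 1.56-fold lower (limma adjusted p = 7.97e-05) and Psme3ip1 had a log2 fold change of -0.06 (limma adjusted p = 0.319).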

How the data were processed

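Gene expression was measured on 10 one-colour oligonucleotide arrays of 45101 probe sets, 5 per genotype. The authors deposited linear signal intensity values, computed with MAS5 per the submitters' processing notes; the trimmed mean was 250.0 on every array. Arrays give no counts, so their number limits the precision. Symbols came from the platform annotation and were updated through RefSeq (34741 of 34945 probe sets with 1 symbol matched); 932 probe sets with several symbols and 9160 without one were not used. From the deposited intensities log2(signal + 7.9) was computed, 7.9 being the 20th percentile of all values. Fold changes are on that scale, and those written N-fold are the same differences with the log undone, except that of the 18S controls, a ratio of mean signals. Probe sets with a mean of at least 25.1 (the 40th percentile) were kept, and the brightest represented each of 12251 genes. Genotypes were compared with limma 3.58.1 in R 4.3.3 (lmFit, eBayes with trend; two-sided), with Benjamini-Hochberg adjustment over all genes, called at an adjusted p under 0.05. The procedure was tested on simulated data.

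The gene lists and members were chosen with earlier results of these data known. Values in every array are given for the catalytic subunits, the activators, Psmf1, Psmd14 and Psmd4, and in each class of more than 3 tested genes for the genes with the 2 smallest and the largest p. Psmd1 and Psmd10 were added after their values were seen, as was the second Psmd6 probe set. Of other lists up to 4 genes with the smallest p are named, with Pomp and Nfe2l1 added after their values were seen. Replicate numbers are shared by the genotypes, but same-numbered samples did not deviate together (correlations of -0.0403 to 0.0506), so no block was used. Other pseudocounts, filters, scalings, variance settings, probe set rules and left-out arrays were tried.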

Additional observations from a re-analysis of the deposited data

Results flagged for a closer look

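In 11 of 132 groups of 5 arrays, 1 array stood apart from the others of its genotype by a gap above 0.71 of the range of the group (Dixon's critical value); chance flags about 1 in 20 groups, or 6.6 of these. From Irf4-/- replicate 4 came the low values of Psmb5 (2229.6, against 2459.9 to 2510.8 in the others), Psmd4 (1989, against 2350.6 to 2397.7) and Psme1 (3751, against 4314.6 to 4453.1). Irf4-/- replicate 5 was high for Psmc2 (4934.1, against 4155.1 to 4231.4) and Psmd12 (1859.4, against 1734.8 to 1768.5). Irf4+/+ replicate 1 was high for Psmd4 (2556.4, against 2251.5 to 2317.1), Psmd6 (3414.1, against 2966.8 to 3066.5), Psmd10 (497.4, against 410.9 to 435.8) and Uchl5 (3749.3, against 3050.6 to 3211.5). Irf4+/+ replicate 2 was high for Psmc2 (6449.6, against 5431.4 to 5697.7) and low for Ufd1 (709, against 762.7 to 780.8).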

How the results depend on the processing

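Across 22 alternatives, 7 base genes were called lower in all but 1, the mean of all probe sets of a gene, which gave 6 base and 6 lid genes. In the other alternatives 7 or 8 lid genes were called lower, except for 4 without probe sets named _s_at, _x_at or _a_at, where Psmd12 and Psmd14 have no other probe set. The count of core genes called lower was 7 after quantile normalization, and 1 core gene was called higher with array weights, Psma1 (limma adjusted p = 0.0499), and 1 with the replicate block, Psmb1 (limma adjusted p = 0.0385). With 1 array left out, core genes called higher ranged from 0 to 2, core genes lower from 2 to 4 and lid genes lower from 7 to 8. Over all genes of the rule, including both that share only the symbol, the calls ranged from 2 to 5 higher and from 21 to 25 lower. Same-numbered samples did not deviate together and 0 of 5 correlated best with their own number. With the replicate block 5716 genes were called, beside 5788 without it, and 24 genes of the rule were lower and 4 higher. Signs turned only where log2 fold changes were small or probe sets differed. Quantile normalization gave Psma4 -0.023, Psmb7 -0.012, Psmf1 -0.017 and Psmd4 0.00467, and centring on the array median gave Psma4 -0.052, Psmb7 -0.052 and Psmf1 -0.059. The mean of all probe sets gave Psma1 -0.038, Psma3 0.059 and Psmd9 0.10. Without the _s_at, _x_at and _a_at probe sets Psma3 was 0.23, Psmb3 -0.10, Psmd13 0.19 and Nfya -0.37. With 1 array left out Psma4 ranged from -0.017 to 0.061, Psma5 from -0.10 to 0.013, Psmb7 from -0.022 to 0.041, Psmd4 from -0.047 to 0.020 and Psmf1 from -0.039 to 0.044. Psmd13 and Psmd7 were not called with the mean of their probe sets. Centring changed the split of all genes to 3264 lower and 2330 higher, from 2927 and 2861. The cause of these shifts was not tested. Probe sets near background limit what is read from dim genes.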
